A study of Mus musculus with 52 samples.

Results

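The regions described here are enhancers that were listed in mouse epiblast-like cells (EpiLCs), were not listed in mouse embryonic stem cells (mESCs), and lie inside genes away from transcription start sites (TSSs). They came from the EpiLC enhancer table of a chromatin immunoprecipitation (ChIP-seq) series with 52 libraries, 43 from mESCs and 9 from EpiLCs. A region was kept if it was at most 10000 bp long, overlapped no mESC enhancer, had its centre over 1 kb from every TSS of the deposited gene table, and had that centre inside a gene interval of at most 3.2 Mb. Of 16576 EpiLC enhancers, 16348 passed the length limit, 12236 of these overlapped no mESC enhancer, 9688 of these were distal, and 4188 of these lay inside a gene. The 4188 EpiLC-only intragenic enhancers had 2810 host genes. No value from the libraries of this series entered these choices. The same steps gave 3 sets for comparison. They include 1761 distal intragenic EpiLC enhancers that overlapped the mESC list, and 2300 distal intragenic mESC enhancers that overlapped no EpiLC enhancer. The remaining set held 5500 EpiLC-only distal enhancers outside genes, meaning outside every gene interval of at most 3.2 Mb. By the GENCODE annotation, 4459 of these 5500 (81.07%) were outside genes and 860 (15.64%) were centred in introns.

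The libraries came from control cells (ABE), clones mutant at lysine 27 of canonical H3 (cK27R, 2 clones) or of all H3 (pK27R, 2 clones), and cells lacking SUZ12 (SUZ12KO), the Polycomb subunit needed for methylation of that lysine. A smaller group of H3.3 libraries adds cells without H3.3 (H3-3KO) and 2 clones of these with wild-type H3.3 put back (pK27WT), and describes pK27R as the same knockout with K27R mutant H3.3. The EpiLC libraries hold H3K27ac and RNA polymerase II in ABE, SUZ12KO and the 2 pK27R clones, and 1 input. All libraries share the C57BL6/129Sv background. mESCs were kept naive with LIF and inhibitors of GSK3 and MEK1, and EpiLCs were differentiated from them on fibronectin for 48 hours. The tables analysed here hold positions with no value per library, so signal per library was not analysed here, depth is unknown, and the mutant lines could not be compared over these enhancers. Each enhancer list was taken by the authors from an older study and moved to mm10 coordinates. The EpiLC list was built from H3K27ac, H3K4me1 and p300 peaks, while the mESC list is known to rest on binding of OCT4, SOX2 and NANOG. A difference between the lists therefore cannot be told apart from a difference in how they were made, and absence from the mESC list is not absence of activity in mESCs. Each list is 1 set without replicates, and regions are not replicates of a condition, so the comparisons below are descriptions without tests. Intervals in brackets are 95% Wilson intervals that cover counting error only.

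Enhancers are stretches of DNA where transcription factors bind together and raise transcription from promoters that may be far away. Active ones carry acetylation of histone H3 at lysine 27, which p300 and its relative CBP deposit, and Polycomb complexes can methylate the same residue instead. When naive mESCs pass into the formative state that EpiLCs model, OCT4 stays present, the naive factors KLF4 and ESRRB fall, and factors such as OTX2, GRHL2, ZIC2 and the POU factor OCT6 act on new enhancers. Many enhancers of mammalian genomes lie in introns, either of the gene they act on or of a bystander.

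The sequences below show what such enhancers look like in genes of the 6 gene lists that held most of these enhancers per Mb of gene. Each is the central 250 bases of 1 enhancer, free of annotated exons, read from GRCm38 on the plus strand. In each list the gene with most enhancers was taken, and of its enhancers with no exon in that window the one with most motif matches. Capitals mark exact matches, on either strand, to 16 motifs: octamer ATGCAAAT, SOX ACAATGG, OTX and GSC homeodomain GGATTA, ZIC CAGCAGG, TEAD GGAATG, GRHL AACCNGTT, ETS CCGGAAG, TCF and LEF CTTTGAT, FOX TGTTTAC, KLF GGGTGTGG, ESRR half-site TCAAGGTCA, AP-1 TGANTCA, SMAD palindrome GTCTAGAC, E-box CAGCTG, STAT TTCCNGGAA and NRF1 half-site GCGCATGC. A match is a description of the letters and not a bound site.
Grhl2 chr15:37243776-37244025: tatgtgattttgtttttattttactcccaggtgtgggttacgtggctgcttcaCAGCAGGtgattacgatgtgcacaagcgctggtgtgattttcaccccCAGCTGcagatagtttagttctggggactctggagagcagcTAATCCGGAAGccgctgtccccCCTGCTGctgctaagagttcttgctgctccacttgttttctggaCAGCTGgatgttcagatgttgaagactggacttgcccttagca
Tcf7l1 chr6:72736851-72737100: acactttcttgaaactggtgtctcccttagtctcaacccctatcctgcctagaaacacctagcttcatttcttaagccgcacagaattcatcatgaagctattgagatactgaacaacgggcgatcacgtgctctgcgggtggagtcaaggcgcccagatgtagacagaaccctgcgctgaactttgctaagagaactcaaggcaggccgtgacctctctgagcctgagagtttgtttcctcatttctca
Dnmt1 chr9:20944064-20944313: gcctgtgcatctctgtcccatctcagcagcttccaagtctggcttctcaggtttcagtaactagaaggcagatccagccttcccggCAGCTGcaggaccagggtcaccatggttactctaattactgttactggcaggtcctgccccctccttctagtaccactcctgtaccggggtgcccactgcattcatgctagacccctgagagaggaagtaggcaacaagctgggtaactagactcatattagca
Maml3 chr3:52028201-52028450: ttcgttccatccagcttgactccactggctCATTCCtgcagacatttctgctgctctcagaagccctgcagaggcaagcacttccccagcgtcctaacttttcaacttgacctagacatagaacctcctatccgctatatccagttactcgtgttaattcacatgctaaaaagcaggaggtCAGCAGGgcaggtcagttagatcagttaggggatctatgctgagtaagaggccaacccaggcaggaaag
Yap1 chr9:7944926-7945175: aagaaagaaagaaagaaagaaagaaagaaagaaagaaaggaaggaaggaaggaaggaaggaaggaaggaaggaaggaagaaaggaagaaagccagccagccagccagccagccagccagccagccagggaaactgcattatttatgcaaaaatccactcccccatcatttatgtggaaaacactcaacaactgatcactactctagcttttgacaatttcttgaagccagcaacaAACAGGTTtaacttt
Bcor chrX:12114014-12114263: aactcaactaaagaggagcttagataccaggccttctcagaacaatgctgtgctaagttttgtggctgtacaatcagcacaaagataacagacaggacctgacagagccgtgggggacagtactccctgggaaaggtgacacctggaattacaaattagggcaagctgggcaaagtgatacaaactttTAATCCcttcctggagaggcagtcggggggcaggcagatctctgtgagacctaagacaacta
The Grhl2 window held 6 matches, namely 2 to ZIC, 2 to the E-box, and 1 each to OTX and ETS that overlap in a single run of capitals. The region around it was centred 739 bp from a TSS of the GENCODE annotation, though over 1 kb from those of the gene table. The Maml3 window held 2 matches, to TEAD and ZIC. Those of Dnmt1, Yap1 and Bcor held 1 each, to the E-box, GRHL and OTX motifs. The Tcf7l1 window held no match, which says only that these letters are not in this window.

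At the median, the enhancers were short relative to their host genes, at 1650 bp against 67.8 kb. The middle 50% of enhancer lengths lay between 1050 and 2725 bp, with a range from 175 to 9975 bp. The distal intragenic EpiLC enhancers that overlapped the mESC list had a median of 2225 bp, and the mESC-only ones 642 bp. The mESC-only regions were the narrower ones. The 5 longest lay in Pitpna (9975 bp), Sgk1 (9950 bp), Txnip (9950 bp), an unnamed interval on chromosome 14 (9925 bp) and Rps6kb1 (9825 bp). The 5 shortest lay in Rftn1 and Smad1 (175 bp each), Ankrd44 (200 bp), and Ppm1h and Ptprm (225 bp each). At the limits of the definition, the nearest enhancer beyond the length limit measured 10200 bp. The closest kept centre was 1002 bp from a TSS and the closest rejected one 1000 bp. The smallest gap between a kept enhancer and an mESC enhancer was 12 bp, while the smallest overlap that removed one was 24 bp. A further 1798 regions lay only inside intervals longer than 3.2 Mb, of which the shortest spanned 6965772 bp.

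Most of the enhancers were intronic and spread over the whole gene with a small lean towards its start. By GENCODE M21, 86.7% (85.7 to 87.7) of centres were in an intron, 6.04% in an untranslated or noncoding exon of a protein-coding gene, 2.96% in a coding exon, 1.93% in an exon of another gene type, and 2.34% outside any GENCODE gene. The intron share was 90.35% (88.9 to 91.6) for enhancers overlapping the mESC list and 92.1% (91.0 to 93.2) for mESC-only ones. Along the host gene from its TSS to its end, the first 25% held 28.7% (27.3 to 30.0) of the enhancers, and the following stretches of the same size held 26.7%, 22.1% and 22.5%. For mESC-only enhancers these shares were 26.0% (24.2 to 27.8), 24.4%, 25.3% and 24.3%. When centres had to be over 2 kb from a TSS, the first 25% held 26.0% of EpiLC-only enhancers. The mESC-only share was not recomputed at that distance. Where an intron number could be given (3591 enhancers), 33.6% (32.1 to 35.1) were in the first intron of the host's transcript, against 24.3% of the intron bases of those transcripts. Enhancers overlapping the mESC list gave 34.7% (32.4 to 37.1) against 24.5%, and mESC-only ones 26.7% (24.9 to 28.7) against 22.7%. Both EpiLC sets were thus denser in first introns than the intron length gives, and the mESC-only set less so.

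**Figure D1:**
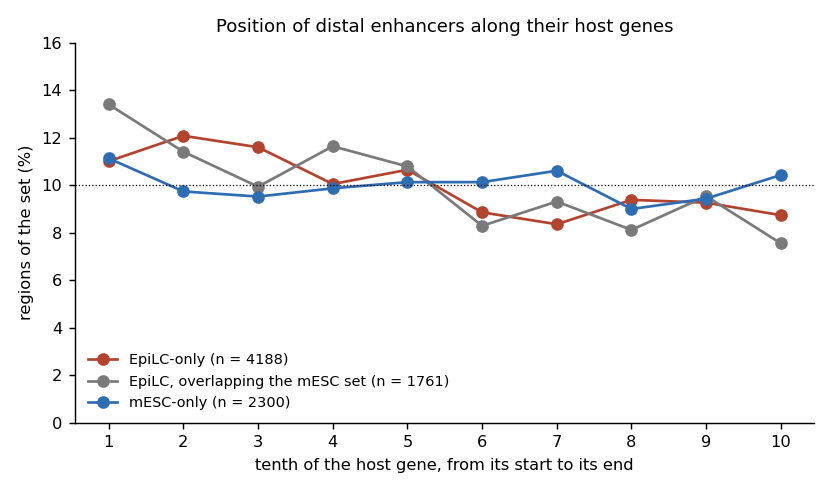
Share of regions (vertical axis, %) in each 10% of the host gene from its start to its end (horizontal axis), for EpiLC-only enhancers, EpiLC enhancers overlapping the mESC list and mESC-only enhancers. The dotted line marks an even spread, and EpiLC-only enhancers lie above it in the first 5 bins, with 12.1% in the second, and below it in the last 5.

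From the enhancer centre to the closest TSS in the gene table the median distance was 24.8 kb (middle 50%, 8.76 to 59.96 kb), and 13.8% of the enhancers were over 100 kb from any. For mESC-only intragenic enhancers the median was 33.9 kb and 22.2% were that far. The nearest TSS belonged to the host gene for 68.65% of the enhancers. Of the other 1313, 253 were within 10 kb of the TSS of another gene. The gene table has 1 TSS per interval, and GENCODE lists many more. By that annotation 651 of the enhancers, 15.5% (14.5 to 16.7), were centred within 1 kb of a TSS, against 11.8% (10.3 to 13.3) of those overlapping the mESC list and 7.44% (6.43 to 8.58) of mESC-only ones. Long regions also reached back over the promoter: 163 (3.89%) covered a TSS of the gene table although their centres were over 1 kb away. Dnmt3b, which encodes a de novo DNA methyltransferase, is such a case: a region of 4725 bp was centred 1.01 kb into the gene and covered its TSS, and the regions at Car4, Lin28a, Trim28 and Mbd3 did the same.

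Long genes held these enhancers most often, and short genes held them most densely. Among genes up to 10 kb, 1.93% were hosts, and the share rose through 8.54%, 19.2% and 39.6% to 53.0% of genes over 300 kb. Per Mb of gene the order was the opposite, with 5.36 enhancers in genes up to 10 kb, 5.25 in those of 10 to 30 kb, 4.84 up to 100 kb, 4.22 up to 300 kb and 1.84 above. The mESC-only enhancers did not show the same order, with 1.81, 2.11, 2.50, 2.30 and 1.48 per Mb over the same classes. Since the definition leaves out 1 kb on each side of a TSS, short genes had the least sequence in which an enhancer could be counted. Host genes also more often had an EpiLC enhancer within 1 kb of their own TSS, 451 of 2810 (16.05%) against 2731 of 21388 other genes (12.8%). The host share was higher in each of the 5 length classes, for example 12.9% against 8.15% between 100 and 300 kb.

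**Figure D2:**
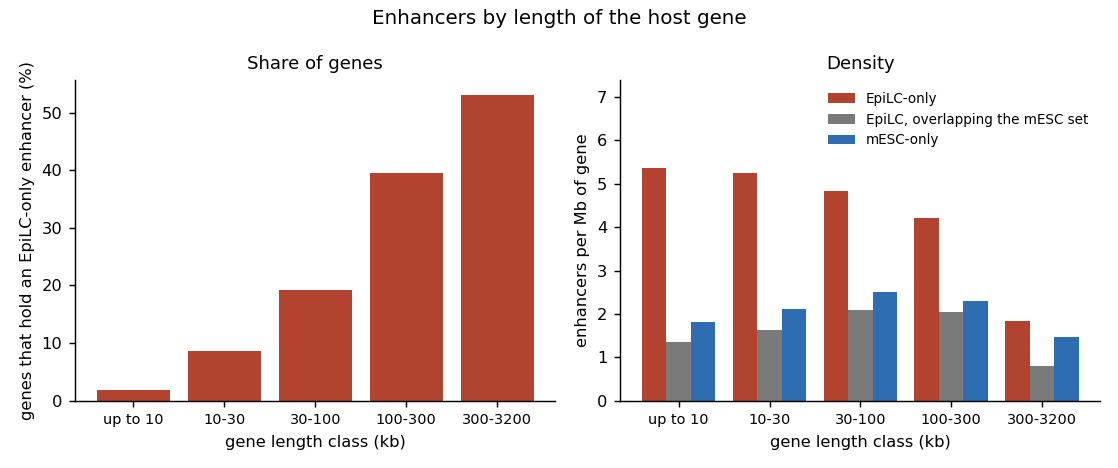
Left, share of genes in each length class (kb) that hold an EpiLC-only distal enhancer. Right, enhancers per Mb of gene in the same classes for EpiLC-only, mESC-overlapping EpiLC and mESC-only enhancers; the EpiLC-only density falls from 5.36 to 1.84 per Mb while the share of host genes rises from 1.93% to 53.0%.

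Most hosts held a single such enhancer, 1990 of 2810 (70.8%), while 501 held 2, 258 held 3 or 4, and 61 held 5 or more. Of the hosts of mESC-only enhancers 84.4% held 1, and of those of mESC-overlapping EpiLC enhancers 78.7%; these sets are smaller, and no adjustment was made for set size. Among the EpiLC-only ones, 1106 (26.4%) lay within 12.5 kb of another, and joining those gave 3571 runs, of which 95 had 3 or more enhancers. Among the genes with most were Cuedc1 with 11, Msi2 with 10, Rere and Tanc1 with 8, and Cdh4, Chd9, Elmo1, Etl4 and Maml3 with 7 each.

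Cuedc1, which encodes a CUE domain protein, stood apart. Its interval of about 95 kb (chr11:88099146-88194140) held 11 enhancers of 850 to 5550 bp, and all 11 formed 1 run of 71850 bp with gaps under 12.5 kb, while the next longest runs had 5. All were intronic, 9 of them in intron 1 and 2 in intron 3. The gene held 1 mESC enhancer, and the gaps from the 11 to the nearest mESC enhancer ran from 3.88 to 58.2 kb. Msi2, which encodes a Musashi RNA-binding protein and lies in the same Mb of chromosome 11, held 10 in an interval of 379 kb (chr11:88339382-88718267), of which 4 lay together in intron 6 between 141 and 159 kb from the TSS. Unlike Cuedc1, Msi2 also held 8 mESC enhancers. With 3 in other genes, that 1 Mb (88 to 89 Mb) held 24 of these enhancers, against 12 in the next fullest bins and a median of 2 over the 1483 bins that held any.

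The other leading hosts differed in how much of their enhancer content was EpiLC-only. Maml3, a mastermind-like coactivator of Notch, held 7 in 417 kb and no other enhancer of either list. Of these, 6 were in intron 1, and 4 were grouped between 34.8 and 76.7 kb from the TSS. Rere, a corepressor gene, held 8 in 340 kb beside 2 mESC enhancers, and Tanc1, a scaffold protein gene, held 8 in 234 kb beside 2. Chd9, a chromodomain helicase gene, held 7, of which 5 formed a run of 24350 bp in intron 2. Elmo1, which acts with DOCK proteins in cell movement, and Etl4 held 7 each beside 6 and 10 mESC enhancers. Cdh4, the R-cadherin gene, held 7 beside 2 mESC enhancers, and 6 of the 7 were in intron 2, with lengths from 525 to 2400 bp.

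**Figure D3:**
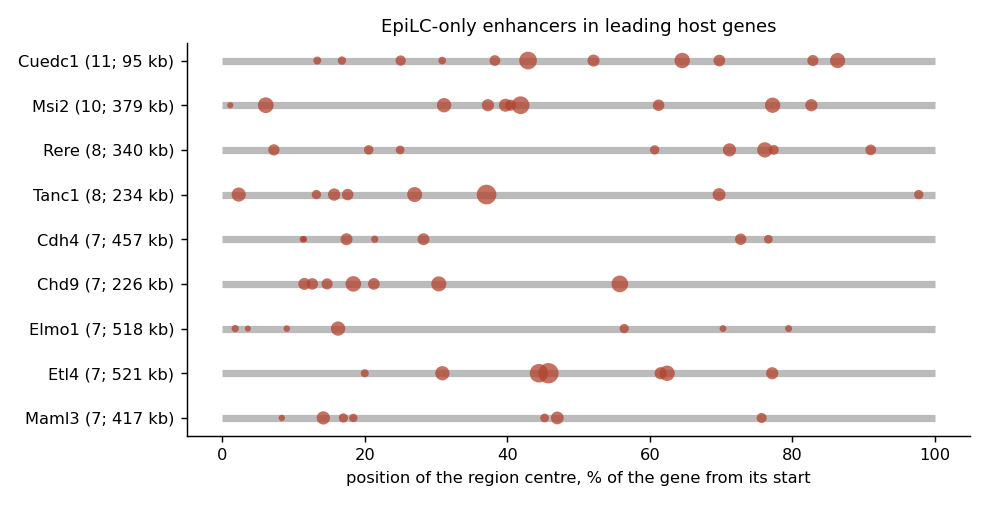
Position of each EpiLC-only enhancer (points, area growing with region length) along the leading host genes named in the text, as % of the gene from its start (horizontal axis); counts and gene lengths stand beside the names. The 11 enhancers of Cuedc1 are spread over most of the gene, while those of Chd9 sit mainly towards the start.

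Counted per 100 kb among hosts with at least 3, the densest included Glipr2 (14.0 per 100 kb), Fzd10os (13.9), 4933407K13Rik (12.7), Cuedc1 (11.6), Impa2 (10.1), Wt1os (10.0), Syt13 (9.77), Btbd3 (9.73) and Stpg1 (9.57). Apart from Cuedc1, these are genes of 21.4 to 50.0 kb with no mESC enhancer inside. Fzd10os and Wt1os are antisense transcripts of the Wnt receptor gene Fzd10 and the transcription factor gene Wt1. The 5 in 4933407K13Rik formed a run of 26150 bp on the X chromosome. That chromosome held 72 of these enhancers in all, 1.59 per Mb of genic sequence with overlapping genes counted once, against 4.08 over all chromosomes. The other intragenic sets were also sparse there. EpiLC enhancers overlapping the mESC list had 0.550 against 1.72 per Mb, and mESC-only ones 1.39 against 2.24. For EpiLC-only enhancers, chromosome 11 had the most at 5.31 and chromosome 4 had 5.01.

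Some hosts are uncertain. The files pair intervals with no gene names, and 119 of the enhancers lay in an interval that matched no annotated gene. The largest group was in the cluster of major urinary protein genes on chromosome 4, with 12 between 60 and 61 Mb and 6 between 61 and 62 Mb, inside intervals of over 1 Mb that run over several near-identical genes. Those regions were 925 to 2150 bp long. Their placement among the copies, and the counts there, are uncertain. Another 136 enhancers lay in more than 1 interval and were given to the shortest.

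The gene lists describe where these enhancers fell by function. Over all genes there were 3.68 of these enhancers per Mb of gene interval, and 11.6% of genes were hosts. As short genes are denser, each list's count is given beside the count that the same genes would hold at the density of their length classes. General pluripotency genes held 9 against 2.86, genes of the formative and primed epiblast 13 against 4.26, and DNA methylation genes 10 against 3.55. Notch genes held 13 against 4.95 and Hippo genes 16 against 8.50. Close to the density of their lengths were FGF and ERK (16 against 13.1), Wnt (17 against 14.2), BMP (6 against 5.21) and Nodal, activin and TGF-beta genes (7 against 7), as were naive pluripotency genes (4 against 4.13). Axon guidance and neuronal adhesion genes held the most of any list, 45, and their length classes give 45.1. Muscle and liver genes, chosen as tissues unlike EpiLCs, held 5 against 10.2. Polycomb genes held 9 against 6.31, epithelial junction and polarity genes 23 against 16.6, and enhancer coactivators 24 against 17.7. Per Mb, unadjusted for length, the other intragenic sets were also dense in many lists. EpiLC enhancers overlapping the mESC list exceeded their 1.548 over all genes in all lists but axon guidance (1.024) and muscle and liver (0.278). They reached 23.2 in general pluripotency and 5.797 in Hippo genes. mESC-only ones exceeded their 2.022 in Polycomb (5.978), Hippo (3.162) and other lists. They fell below it in general pluripotency, DNA methylation, Nodal, BMP, and muscle and liver genes.

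**Figure D4:**
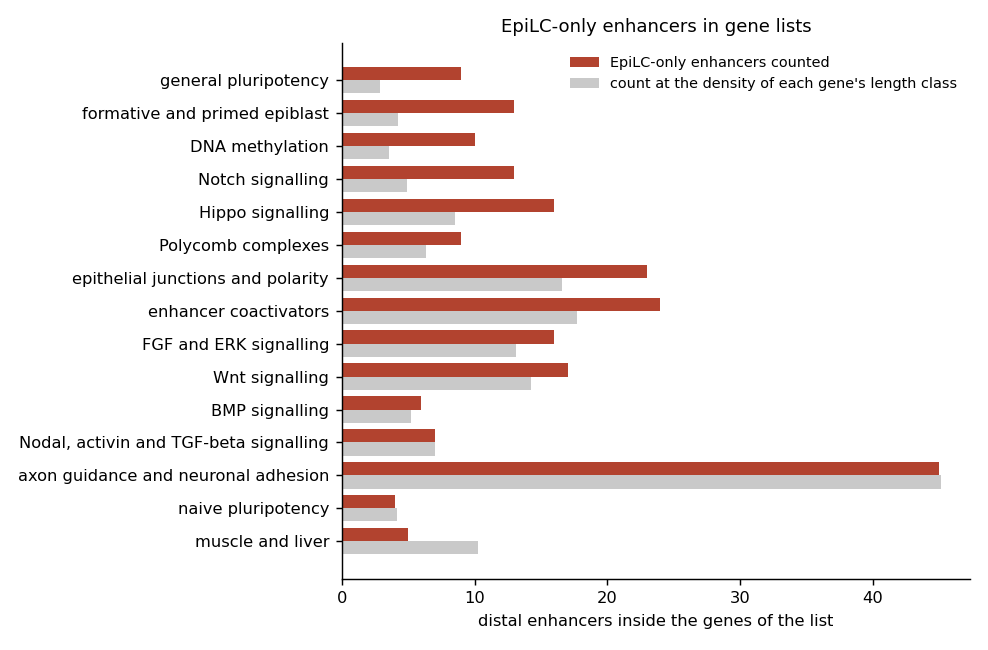
EpiLC-only distal enhancers counted in each of 15 gene lists (red bars) beside the count given by the density of each gene's length class (grey bars), ordered by the ratio of both. General pluripotency genes (9 against 2.86) are at the top and muscle and liver genes (5 against 10.2) at the bottom.

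In the formative and primed list, 7 of 28 genes were hosts, and Grhl2 accounted for 5 of the 13 enhancers. Grhl2 encodes the grainyhead-like factor that opens epithelial enhancers in the formative state. Its enhancers had centres 1.04, 10.9, 30.3, 58.3 and 80.1 kb from the TSS of a 131 kb gene, from chr15:37232652-37235501 to chr15:37311777-37314476, and were 1000 to 6850 bp long. The first of them also covered the TSS. By GENCODE, the first was centred 767 bp and the second 739 bp from a TSS. They sat close to mESC enhancers, with gaps of 0.734 to 22.4 kb, and the gene held 2 more EpiLC enhancers that overlapped the mESC list. Lef1, a nuclear effector of Wnt signalling, held 2 at 34.0 and 71.9 kb, and no mESC enhancer lay inside it. Dnmt3a also held 2, and Car4, Dnmt3b, Etv4 and Sall2 held 1 each. Those in Dnmt3b, Etv4 and Sall2 were centred 178, 358 and 516 bp from a GENCODE TSS. The other 21 genes of the list held none, and they include Fgf5, Otx2, Pou3f1, Nodal, Zic2 and Eomes. These are mostly short genes, the median interval of the list being 8.19 kb, and enhancers beside them fall outside the definition.

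DNA methylation genes were hosts in 8 of 16 cases. Dnmt1, which maintains methylation, held 2 (chr9:20942977-20945401 and chr9:20951052-20954001), the de novo enzyme genes Dnmt3a and Dnmt3b held 2 and 1, and their cofactor Dnmt3l held 1. Of these, the second in Dnmt1 was 79 bp, and that in Dnmt3b 178 bp, from a GENCODE TSS. The demethylase gene Tet1 held 1 at chr10:62863252-62867576, 14.6 kb from the TSS in the gene table and 110 bp from one in GENCODE. Uhrf1, which brings DNMT1 to newly copied DNA, held 1, and Mbd3 and Zbtb38 held 1 each. The regions in Mbd3 (7575 bp), Zbtb38 (9200 bp) and Dnmt3b covered a TSS of the gene table. Against these 10, the 16 genes held 3 distal EpiLC enhancers that overlapped the mESC list and 1 mESC-only one.

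Both pluripotency lists held fewer EpiLC-only than shared distal enhancers inside their genes. The general list held 9 EpiLC-only and 15 shared intragenic enhancers, with 3 of the 9 in Tcf7l1, a repressor of the naive network, 2 in Jarid2, and 1 each in Lin28a, Sall4, Trim28 and Zscan10. The naive list held 4 EpiLC-only and 11 shared ones, with 2 of the 4 in Manba and 1 each in Esrrb and Lifr. The enhancer in Esrrb (chr12:86515527-86517401) lay near the end of the gene, 155 kb from the TSS, and the gene held 4 shared enhancers as well. Lifr, the receptor through which LIF acts on naive cells, held 1, and no mESC enhancer lay inside it.

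In the signalling lists most genes held none, among them the receptor genes Fgfr1, Notch3, Tgfbr1, Tgfbr2, Bmpr1a and Bmpr2, and the genes named here are those that held some. For Notch, the receptor genes Notch1 and Notch2 held 1 and 2 and the coactivator genes Maml2 and Maml3 held 2 and 7, so Maml3 alone made up 7 of the 13. For Hippo, the coactivator gene Yap1 held 4 over 72.6 kb, at 4.83, 20.5, 43.1 and 59.5 kb from the TSS. Its DNA-binding partner genes Tead1 and Tead3 held 3 and 1, and the upstream regulator gene Wwc1 held 3. For FGF, the receptor gene Fgfr2 and the gene Fgf14 held 3 each, and Gab1, Map2k1 and Rps6ka2 held 2 each. For Nodal and TGF-beta, 5 of 7 were in the co-receptor gene Tgfbr3, spread from 87.7 to 162 kb from its TSS, and 1 each in Ski and Smad4. For BMP, the receptor gene Acvr1 and the effector gene Smad1 held 2 each, and Bmp7 and Bmpr1b 1 each. For Wnt, Tcf7l1 held 3, and Lef1, Ror2, Wnt5b and Znrf3 held 2 each.

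Among structural and chromatin genes, Cdh1, the E-cadherin gene, held 2 in intron 2 (chr8:106627402-106634526 and chr8:106638252-106642601), of 7125 and 4350 bp. Ctnnd1, for its partner p120 catenin, held 2 and no mESC enhancer. The scaffold genes Magi1 and Magi2 held 4 each. Of the Polycomb genes, Bcor held 3, all in intron 1, Jarid2 and Phc2 held 2 each, and Kdm2b and Phc1 held 1 each. Of the coactivator and deacetylase genes, Arid1b and Hdac4 held 3 each, and Hdac7, Hdac9 and Ncoa1 were among those with 2. Of the axon guidance genes, Nrxn3 held 5 over 1540 kb, Ephb2 held 4 in 188 kb, and Sema3e and Unc5d held 3 each. The 3 in Sema3e all lay in intron 1 within 24.6 kb of the TSS. In the muscle and liver list, Ryr1 held 3 and Dmd 2.

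The gap from these enhancers to the nearest mESC enhancer varied widely. The median gap to the nearest one was 52.4 kb (middle 50%, 17.8 to 131 kb). In 7.84% the gap was at most 5 kb and in 67.8% at most 100 kb. EpiLC-only distal enhancers outside genes had a median gap of 65.5 kb. For mESC-only enhancers the median gap to the nearest EpiLC enhancer was 51.3 kb. The definition removes every region that overlaps the other list, and gaps at random positions were not computed. Of the 2810 hosts, 1755 (62.5%) had no mESC enhancer centred inside. In 1431 (50.9%) the EpiLC-only distal enhancers were the sole enhancers of either list inside the gene or within 1 kb of its TSS. Hosts that also held a shared distal enhancer numbered 609 (21.7%), and 634 (22.6%) also held an mESC-only one. Of all 24198 gene intervals, 1320 held a shared distal enhancer and 1870 an mESC-only one, so hosts held both kinds more often. Host genes were also longer, with a median of 67.8 kb against 14.5 kb over all intervals. The share of all genes without an mESC enhancer inside was not computed.

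In sequence, the enhancers were richer in G and C than the genes that hold them, and most of all at their centres. The central 500 bp had a median GC content of 48.7% (middle 50%, 45.0 to 53.0%). All 771565 windows of 500 bp tiled over the host genes had a median of 42.6%, and windows 2 kb either side of the same centres 45.2%. Enhancers overlapping the mESC list had 46.6% and mESC-only ones 44.4%. CpG dinucleotides numbered 17.8 per kb against 9.36 in the tiled windows and 9.90 in mESC-only enhancers. Within the set, the 651 enhancers within 1 kb of a GENCODE TSS had a median GC content of 52.0% and 28.15 CpGs per kb, against 48.4% and 15.9 in the others.

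Of the 16 motifs, 15 were found in a larger share of the enhancer centres than of the tiled windows, and 13 in a larger share than of the windows 2 kb away, the exceptions being the OTX and GSC, TCF and LEF, and NRF1 motifs. Base composition alone shifts such shares, so each was also compared within windows of 45.0 to 53.0% GC, which 2145 enhancers and 31.1% of tiled windows had. The ETS motif was in 8.29% (7.49 to 9.16) of centres against 1.57% of tiled windows, the largest ratio over all windows (5.29), but within the GC range it was in 4.01% against 2.24% (1.79), below the ratios of the octamer (2.03), the GRHL motif (1.86) and the SMAD palindrome (1.81). The share over all windows included a repeated sequence described further on, without which the share was 4.43%. The ZIC motif was in 25.1% (23.8 to 26.4) against 11.2%, and within the GC range in 28.3% against 16.4%. The E-box was in 30.3% (28.9 to 31.7) against 19.0%, and the GRHL motif in 5.56% (4.91 to 6.30) against 3.62%. Within the GC range these were 32.5% against 26.5%, and 6.11% against 3.28%. The GRHL and E-box shares were near those of EpiLC enhancers overlapping the mESC list, 5.34% (4.38 to 6.49) and 28.45% (26.4 to 30.6). That set had the ZIC motif in 19.2% (17.4 to 21.1). EpiLC-only enhancers outside genes had 5.82%, 28.8% and 25.1% for GRHL, E-box and ZIC, and mESC-only ones 3.35%, 22.1% and 15.6%. The GC range was not applied to these other sets. ZIC and GRHL factors are both among those known in formative cells, but their binding here was not tested.

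Motifs of the core and naive network were in smaller shares of these enhancers than of mESC-only ones. The octamer, which OCT4 and other POU factors bind, was in 4.27% (3.70 to 4.93) of the EpiLC-only centres, 7.44% (6.30 to 8.76) of those overlapping the mESC list and 11.04% (9.83 to 12.4) of mESC-only ones, with 3.84% of tiled windows. For the SOX motif the shares were 8.10%, 10.85% and 15.4% against 7.75%. The KLF motif was in 4.85%, 6.08% and 8.09% against 3.23%, and the ESRR half-site in 1.72%, 2.84% and 3.30% against 1.18%. Within the GC range, the octamer was in 4.52% of EpiLC-only centres against 2.22% of tiled windows and the SOX motif in 8.58% against 6.83%. In each of these 4 the overlapping enhancers fell between both list-specific sets. EpiLC-only and mESC-only enhancers were not matched for GC content (medians 48.7% and 44.4%) or region width. The GC range was not applied to the mESC-only shares. The mESC list was defined by OCT4, SOX2 and NANOG binding, so its octamer and SOX shares are not independent of its making. The TCF and LEF motif was the only one rarer than in tiled windows, 6.57% (5.86 to 7.36) against 9.32%, and within the GC range the shares were 7.32% and 7.20%. The OTX and GSC motif was in 19.99% (18.8 to 21.2) against 18.5%, and in 23.0% against 17.1% within the GC range, but it was in 20.95% of the windows 2 kb away, and its level near the centre was 1.01 times that at 1.5 to 2 kb. The TEAD motif was in 27.4% against 25.05%, the FOX motif in 8.95% against 7.45% and the AP-1 motif in 14.6% against 14.5%. The SMAD palindrome (0.573% against 0.418%), the STAT motif (1.74% against 1.28%) and the NRF1 half-site (0.907% against 0.626%) were also rare, and within the GC range the NRF1 half-site was in 0.886% against 0.915%, below the tiled windows. None of the 16 was found in 576 enhancers (13.8%), against 24.7% of tiled windows.

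The matches were also placed differently around the centres. In mESC-only enhancers the octamer reached 0.279 matches per kb within 200 bp of the centre, 4.49 times its level at 1.5 to 2 kb, and the KLF motif reached 2.74 times. In EpiLC-only enhancers the same ratios were 1.72 and 1.19. The ZIC motif was the reverse, at 0.628 per kb and 1.90 times its outer level in EpiLC-only enhancers against 0.378 per kb and 1.45 times in mESC-only ones. The GRHL motif was 1.84 times its outer level in the former and 1.01 times in the latter. The EpiLC-only regions were wider (1650 against 642 bp at the median), and the part of region width in these ratios was not tested. As the mESC list was defined by OCT4, SOX2 and NANOG binding, the placement of its octamer and SOX matches is not independent of its making.

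**Figure D5:**
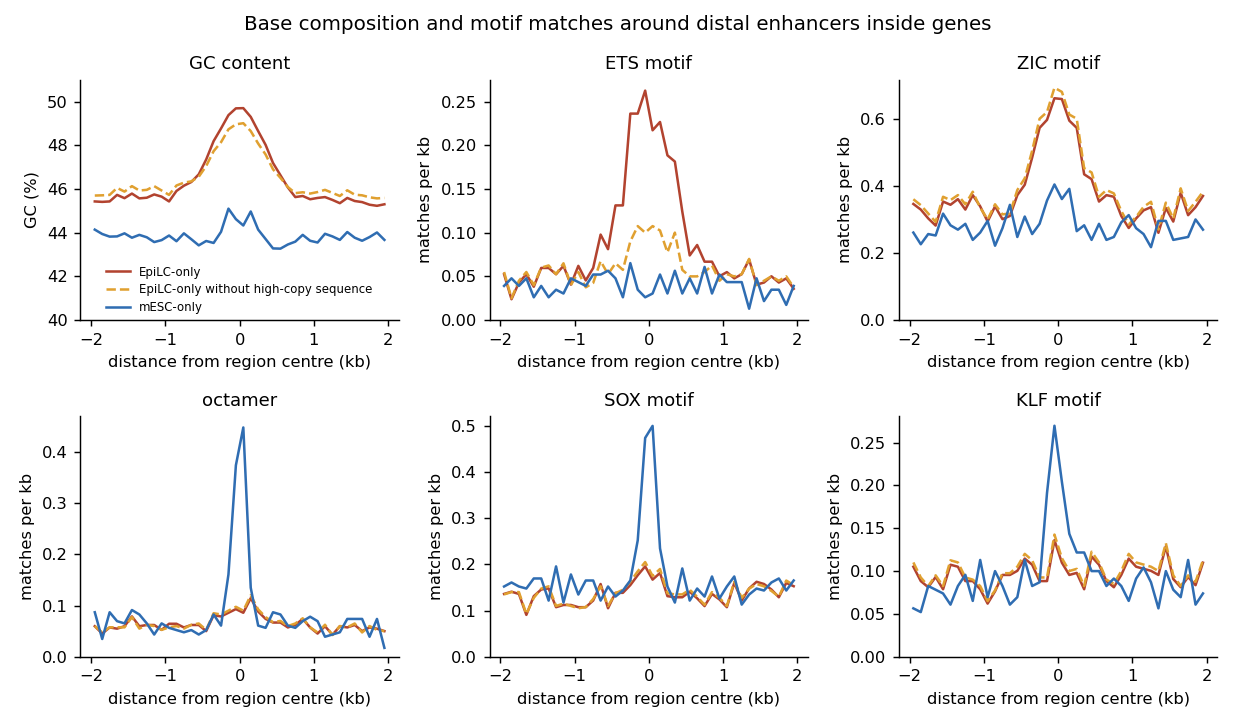
GC content (%) and matches per kb to 5 motifs in bins of 100 bp up to 2 kb either side of the region centre (horizontal axis, kb), for EpiLC-only enhancers, the same without high-copy sequence (dashed) and mESC-only enhancers. The solid and dashed EpiLC-only lines part most in the ETS panel; the octamer, SOX and KLF motifs peak in mESC-only enhancers and ZIC in EpiLC-only ones.

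A repeated sequence ran through part of the set. To find it, each central 500 bp was cut into words of 25 letters, and words found in at least 10 enhancers were called common. In 190 of the 4188 enhancers (4.54%) common words made up at least 50% of the window, and these are called high-copy. The commonest word was in 184 of the 4188 enhancers and is printed because it marks this group.
Commonest word: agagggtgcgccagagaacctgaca
It occurred at 5569 places on the main chromosomes and in 0.0805% of the tiled windows. It was in 8.22% of the EpiLC-only enhancers outside genes, in 2 of the 1761 overlapping the mESC list and in 0 of the 2300 mESC-only ones. The files used here name no repeat families, so the group is given no name.

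The high-copy enhancers differed from the rest of the set in base composition, hosts and placement. Their median GC content was 64.8% against 48.4%, they held 56.3 CpGs per kb against 15.97, and on average 96.3% of their windows was soft-masked as repeat against 20.7%. The ETS motif was in 89.5% of them and in 4.43% of the others, so without them its ratio to the tiled windows fell from 5.29 to 2.83. The ZIC ratio was 2.24 with and 2.32 without them. They sat in long genes, with a median host length over enhancers of 315.5 kb against 90.3 kb, and were far from mESC enhancers, at a median gap of 188 kb against 48.9 kb. On the X chromosome they were 21 of the 72 enhancers. They had 156 named hosts, led by Nol4, in which all 3 enhancers were of this kind. The leading hosts named above held none. The axon guidance list held 9 of its 45, in genes such as Unc5c, Lsamp and Dcc, Dmd held 2 of its 2, Fgf14 and Unc5d held 2 of their 3 each, and Afdn and Hdac9 held 1 each. The formative, general pluripotency, DNA methylation, Notch, Hippo and Polycomb lists held none. Reads from sequences with many copies are hard to place, and how the earlier publication treated them is not given in the sources used here.

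A small number of the enhancers coincide with elements tested in transgenic mouse embryos. RefSeq records 620 such VISTA enhancers for this build, and 38 of the EpiLC-only intragenic enhancers (0.907%) overlapped 37 of them. Per Mb covered this was 4.19, against 2.40 for those overlapping the mESC list, 4.10 for EpiLC-only ones outside genes and 2.02 for mESC-only ones, the last from 4 regions. Of the 37 elements, 16 were recorded in limb, 14 each in forebrain and midbrain, 13 in hindbrain and 6 in heart. For heart that is 16.2%, against 25.65% of all 620, and for limb 43.2% against 28.1%. Forebrain had 37.8% against 26.9%, midbrain 37.8% against 25.65% and hindbrain 35.1% against 22.6%. These shares rest on 37 elements and were not tested. Both Maml3 regions farthest from its TSS were among them, chr3:51788277-51789901 in neural tube, midbrain and hindbrain, and chr3:51907452-51910251 in brain, eye, nose, heart and branchial arch. So were 1 of the 7 in Chd9 (chr8:90860952-90863001), 1 of the 4 in Ephb2, 1 of the 2 in Acvr1, 1 of the 2 in Phc2 and 1 of the 2 in Unc5b. These are records of activity in later embryos and not in EpiLCs.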

How the data were processed

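ChIP-seq was made from 43 mESC and 9 EpiLC libraries. The authors deposited 3 tables of positions in mm10 with no other values, and the tools listed in the submitters' processing notes are bedtools 2.29.2, Bowtie2 2.3.4.1 and Trimmomatic 0.38, beside the builds mm10 and dm6, with no role given. The tables have 0 columns with per-library values, so depth is unknown, and the planned comparison of libraries was not run. Per the series' design text, the enhancer lists were taken from earlier publications and lifted over; the tool is not given in the sources used here.

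Starts were read as counting from 0, and coordinates are printed 1-based. For the enhancer tables this is uncertain by 1 bp. An enhancer's host is the shortest interval that holds its centre. Intervals were named by RefSeq or GENCODE M21, exactly or where overlap divided by union reached 0.8 (23811 of 24402 rows). Densities by gene list and by length class use summed interval lengths, and those by chromosome use merged intervals. Sequence came from the RefSeq FASTA of GRCm38.p6, the assembly of mm10. Motifs were searched exactly on both strands, where different motifs may overlap, and a window counts once per motif. Python 3.11.15, numpy 2.4.6, pandas 2.3.3, scipy 1.17.1 and matplotlib 3.10.9 were used. The interval and motif code was tested on simulated data.

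The definition of the enhancers, the gene lists and the motifs were chosen with earlier results of these data known. Named genes are the 10 hosts with most enhancers, the 10 densest among hosts with at least 3, up to 4 leading genes of each list with all hosts of the formative list, the 5 longest and shortest regions, and those nearest each limit. Some of these are not reported here. Outside that rule, further hosts of the pluripotency, DNA methylation and signalling lists, genes with a VISTA element, and genes with high-copy sequence were named after their values were seen. The high-copy group was also defined after the data were seen.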

Additional observations from a re-analysis of the deposited data

How the results depend on the processing

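Of 56 alternatives over 9 results, 51 left the value within 1.5 times (counts) or within its 95% interval (shares and medians). The number of enhancers ranged from 3537 to 4228, and 13 of 15 gene lists were above the density of all genes, unadjusted for gene length, under both alternatives. The counts set against gene length classes were not recomputed under alternatives; there the naive, Nodal, axon guidance, and muscle and liver lists were not above. The share in the first 25% of the host, 28.7%, was 26.0% when a TSS distance over 2 kb was required. The intron share, 86.7%, was 90.2% for enhancers over 1 kb from every GENCODE TSS and 82.6% when introns of protein-coding genes alone were counted. The median GC content, 48.7%, was 47.7% over whole regions. The median gap to an mESC enhancer, 52.4 kb, was 48.9 kb without high-copy enhancers, an alternative added after the data were seen; leaving them out changed no other result beyond these limits. No paired analysis was possible because the tables hold no value per library. The lists have no replicates, their depth is unknown, and they were defined by different criteria, so counts compare lists and not cell states.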
